A study of Mus musculus with 88 samples.

Results

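Chemokines and their classical receptors were followed across 9 mouse tissues in the presence and absence of M-cadherin, the adhesion molecule encoded by Cdh15. The members were taken by name from the gene annotation: every symbol that starts with Ccl, Cxcl, Ccr or Cxcr followed by a digit, plus Cx3cl1, Cx3cr1 and Xcr1. This gave 57 of the 24453 annotated genes, 38 ligands and 19 receptors. The name rule itself uses no measured value.

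Chemokines are small secreted proteins that guide the migration of leukocytes along concentration gradients. They signal through G protein-coupled receptors, and most are named CC or CXC after the spacing of their first cysteines. Homeostatic chemokines organise lymphoid organs and keep immune cells in their niches, whereas inflammatory ones are induced at sites of injury and recruit neutrophils, monocytes or T cells.

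The study asked how Cdh15 shapes muscle, and profiled polyA RNA from 10 male C57BL/6NTac mice, 5 labelled Cdh15 KO and 5 labelled WT, aged 65 to 85 days. All mice had been fasted for 18 h, so no group was sampled fed. The tissues were heart, kidney, liver, lung, spleen and 4 muscles, namely soleus, gastrocnemius, tibialis and the extensor digitorum longus (EDL). Each of the 18 groups held 5 mice, except that WT kidney and WT spleen held 4, which gave 88 libraries. The labels name each animal, so replicates were separate mice and the tissues of a mouse share that animal. The construction of the KO allele was not given in the sources used here.

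Library totals ran from 8.21 to 25.1 M counts with a median of 19.0 M, and 3 counts equalled 0.119 to 0.366 CPM (counts divided by the library total in M, that is, in mega-counts). The targeted gene matched its labels: Cdh15 was at most 4.06 CPM in any KO muscle library and at least 11.7 CPM in any WT muscle library, and at most 0.144 CPM in the other tissues. Sets of 4 marker genes for heart, kidney, liver, lung, spleen and skeletal muscle, and 3 slow-fibre genes for soleus, were each highest in the tissue of that name among the WT tissues. In the muscles the 10 most abundant genes took 25.8% to 32.4% of the counts and in the heart 34.8% to 36.9%, against 8.42% to 10.5% in the lung. In the liver this share was 16.9% to 19.3%. A scale that allows for composition (trimmed mean of M-values, TMM) had median factors of 0.694 to 0.808 in the muscles and 0.765 in the liver. The median factor was 0.951 in the heart, 1.23 in the kidney, 1.94 in the spleen and 2.08 in the lung. CPM thus reads a gene lower in muscle and liver, relative to lung and spleen, than TMM does. The factors did not follow the share of the 10 most abundant genes in every tissue. Where the TMM scale changed the highest tissue of a member, both leading tissues are named.

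The promoters of 6 members are shown because they belong to neighbouring genes on chromosome 5 that are read out in different organs: Cxcl3, Cxcl15, Cxcl1 and Cxcl2 lie in a run of lung-highest ligands, and Cxcl9 and Cxcl10, in another run, were each highest in the spleen. Each line gives the 250 bases before the start of the gene, 5′ to 3′ on the strand of the gene, from RefSeq on GRCm38.p6. The windows are chr5:90785851-90786100 for Cxcl3, chr5:90794284-90794533 for Cxcl15, chr5:90890995-90891244 for Cxcl1 and chr5:90903649-90903898 for Cxcl2, all on the plus strand. Those of Cxcl9 and Cxcl10 are chr5:92328080-92328329 and chr5:92348890-92349139, on the minus strand. Capitals mark matches to a TATA box (TATAAA), an interferon-response core (AANNGAAA), a gamma-activated site (TTCNNNGAA) or the NF-kB consensus, searched on both strands.
Cxcl3: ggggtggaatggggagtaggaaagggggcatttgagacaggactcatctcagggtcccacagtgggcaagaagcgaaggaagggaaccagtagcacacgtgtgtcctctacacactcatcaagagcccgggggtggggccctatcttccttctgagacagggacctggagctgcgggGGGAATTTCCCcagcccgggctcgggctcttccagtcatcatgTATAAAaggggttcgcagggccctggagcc
Cxcl15: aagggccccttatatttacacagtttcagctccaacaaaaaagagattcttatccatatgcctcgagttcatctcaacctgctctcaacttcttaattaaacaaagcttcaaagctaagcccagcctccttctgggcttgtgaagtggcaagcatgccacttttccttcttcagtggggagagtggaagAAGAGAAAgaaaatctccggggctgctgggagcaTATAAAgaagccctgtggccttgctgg
Cxcl1: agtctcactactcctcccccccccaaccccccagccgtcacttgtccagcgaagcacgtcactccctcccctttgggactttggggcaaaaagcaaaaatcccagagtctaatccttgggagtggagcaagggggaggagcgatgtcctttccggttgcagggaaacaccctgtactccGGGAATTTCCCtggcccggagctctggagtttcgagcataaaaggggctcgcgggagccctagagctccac
Cxcl2: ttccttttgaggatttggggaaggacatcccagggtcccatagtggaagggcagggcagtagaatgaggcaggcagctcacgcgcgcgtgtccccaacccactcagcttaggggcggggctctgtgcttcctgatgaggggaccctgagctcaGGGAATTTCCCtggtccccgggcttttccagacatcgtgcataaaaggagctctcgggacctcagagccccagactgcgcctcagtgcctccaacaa
Cxcl9: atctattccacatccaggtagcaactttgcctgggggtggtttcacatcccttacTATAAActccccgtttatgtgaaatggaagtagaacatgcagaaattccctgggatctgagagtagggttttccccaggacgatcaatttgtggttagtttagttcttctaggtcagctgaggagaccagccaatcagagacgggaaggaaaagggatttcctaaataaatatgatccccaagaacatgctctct
Cxcl10: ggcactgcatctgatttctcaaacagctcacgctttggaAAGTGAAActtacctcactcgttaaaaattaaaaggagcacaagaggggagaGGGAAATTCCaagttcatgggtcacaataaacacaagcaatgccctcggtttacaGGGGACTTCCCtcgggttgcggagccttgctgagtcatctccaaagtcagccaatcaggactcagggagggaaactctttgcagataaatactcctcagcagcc
Of these 6, Cxcl1, Cxcl2, Cxcl3 and Cxcl10 held an NF-kB consensus match, which began 71, 97, 73 and, in Cxcl10, 159 and 104 bases before the start. The matches of Cxcl1, Cxcl2 and Cxcl3 and the nearer one of Cxcl10 each overlapped a second match shifted by 1 base. Cxcl3 also held a TATA box, 30 bases before its start. Cxcl15 held a TATA box 27 bases and an interferon-response core 61 bases before its start, and no NF-kB match in this window. Cxcl10 held an interferon-response core 211 bases before its start, and Cxcl9 a TATA box at 195 bases.

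A promoter entry existed for 41 members, with 48 entries in all, and the shares were compared with all 32851 RefSeq promoters over the same 250 bases before the start. The NF-kB consensus was in 10 of the 48 member entries (20.8%) and in 7.25% of all promoters. The TATA box was in 13 of 48 (27.1%) against 12.4%, the interferon-response core in 14 (29.2%) against 21.3%, and the gamma-activated site in 4 (8.33%) against 7.02%. An entry at the annotated gene start existed for 36 members, and the shares include entries elsewhere. For example, the matches of Ccl27b lay in an entry 500464 bases from the annotated start. Those of Ccr1l1 lay in an entry 8307 bases away, and those of Ccr6 in entries 2532 and 9015 bases away. All these matches describe letters only.

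Most members were expressed, and mainly in 2 organs. In WT mice 37 members reached a mean of 5 CPM in at least 1 tissue, 12 others reached 1 CPM, and 8 stayed below 1 CPM in every tissue (Ccl1, Ccl7, Ccl12, Ccl26, Ccl27b, Ccr8, Ccr10 and Ccr1l1). The spleen was the highest tissue of 29 members and the lung of 19, and the other 9 were highest elsewhere. On the TMM scale 49 of 57 members kept their highest tissue, with the spleen leading 27 and the lung 14. The 8 that changed were Ccl8, Ccl24, Ccr2 and Cxcl14 (to tibialis) and Ccl9, Ccl27a, Ccl27b and Cxcl12 (to liver). For 38 of the 57 members (66.7%) all libraries of the highest tissue lay above all those of the next, when 51.9% of the 21006 genes with a WT read were separated in this way. At a mean of 5 CPM or more in the highest tissue the shares were 81.1% of 37 members and 65.2% of 14299 genes. In the 4 muscles 37 members stayed below 1 CPM, and Cxcl12 alone was at 5 CPM or more in all 9 tissues.

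**Figure D1:**
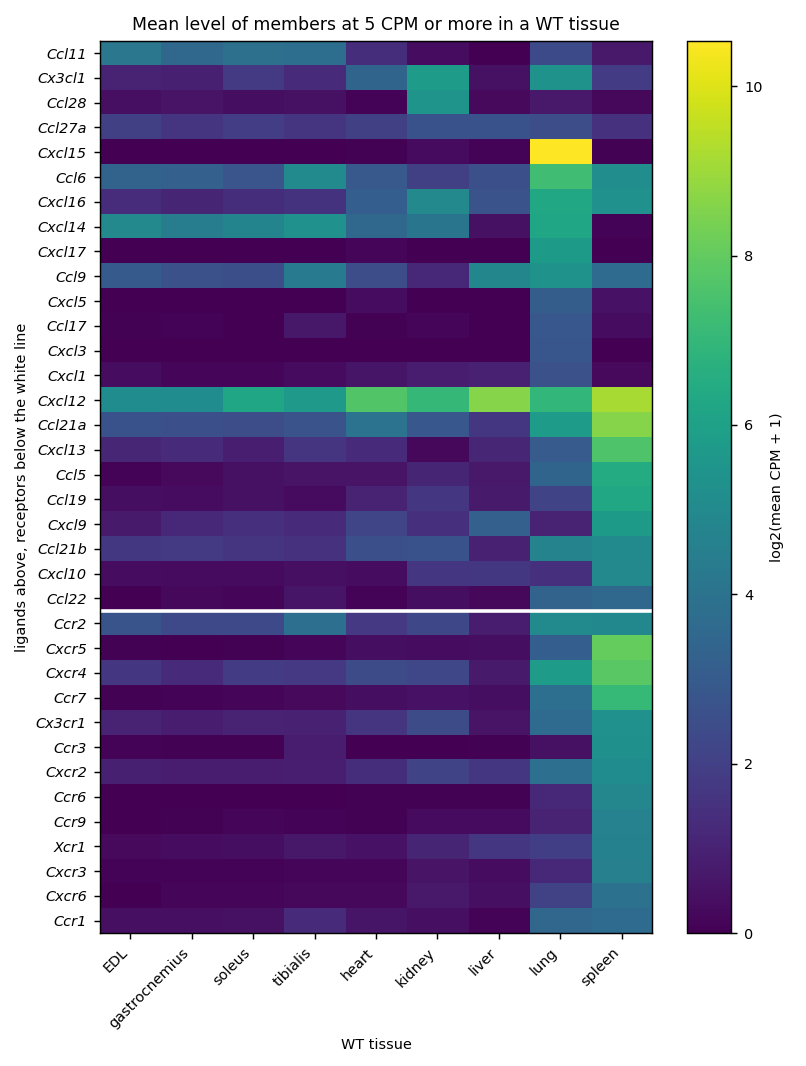
Mean level of 36 of the 37 members at 5 CPM or more in a WT tissue, as log2(mean CPM + 1) on the colour scale, with tissues on the horizontal axis, ligands above the white line and receptors below it. The receptors are highest in the spleen column except Ccr2, and Cxcl15 in the lung is the highest cell.

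Compared per exon length, 5 ligands led a tissue between them. In the lung Cxcl15 made up 59.3% of the summed ligand RPKM, the deposited unit that divides reads by transcript length and library size (776 ± 61.1 RPKM, SD, n = 5). In the spleen Ccl21a led with 459 ± 148 RPKM (n = 4), ahead of Cxcl12 (245 RPKM) and Ccl5 (186 RPKM). Cxcl12 led in the liver with 143 ± 18.9 RPKM, 76.7% of the ligand sum, and also in heart (46.4 RPKM), kidney (51.1 RPKM) and soleus (21.4 RPKM). Cxcl14 led in EDL (16.8 ± 4.13 RPKM) and gastrocnemius (11.7 RPKM), and in EDL it lay within 1 SD of Ccl11 (16.2 RPKM). In tibialis Ccl6 had the highest mean, 22.7 RPKM, with an SD of 19.9, so its lead over Cxcl14 (21.5 ± 2.05 RPKM) was smaller than its spread. Among receptors Cxcr4 led per length in spleen (128 RPKM), lung (30.5 RPKM), heart, kidney and soleus, Ccr2 in EDL, gastrocnemius and tibialis, and Cxcr2 in the liver (0.750 RPKM). The deposited RPKM of Cxcl12 was 1.25 to 2.48 times its count divided by the annotated exon length, so its rank per length depends on the transcript length that was used.

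The neutrophil attractants, CXC ligands with an ELR motif, most of which act on Cxcr2, were highest in the lung for all 5, and none reached a mean of 1 CPM in any other WT tissue. Low levels were counted elsewhere: Cxcl1 measured 0.575 to 1.36 CPM in the WT livers, 0.591 to 0.897 in the kidneys and 0.412 to 0.673 in the hearts, and Cxcl5 0.178 to 0.866 CPM in the spleens. Cxcl15, also called lungkine and known from the bronchial epithelium, measured 1352, 1424, 1436, 1598 and 1612 CPM in the 5 WT lungs, and its next highest tissue mean was 0.252 CPM in the kidney. The WT lungs were close together for this ligand and far above any other tissue mean.

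The other 4 were lower and far more variable between mice. Cxcl5 measured 1.71, 5.39, 6.26, 6.85 and 17.3 CPM, and Cxcl3 measured 0.330, 2.23, 3.71, 6.15 and 18.0 CPM. Cxcl1 measured 1.82, 3.85, 4.23, 4.45 and 11 CPM, and Cxcl2 0.771, 1.28, 2.83, 3.03 and 5.81 CPM. For each of the 4 the highest WT lung was several times the lowest, unlike Cxcl15.

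Homeostatic ligands had 3 patterns, lymphoid, epithelial and broad. Ccl21a and Ccl19, which both bind Ccr7 and draw T cells and dendritic cells into lymphoid tissue, were highest in the spleen: Ccl21a measured 242, 318, 466 and 539 CPM and Ccl19 measured 74.3, 74.9, 80.2 and 81.5 CPM. Cxcl13, the B cell attractant that binds Cxcr5, measured 161, 174, 176 and 273 CPM in the spleen. No other WT tissue mean of Ccl19 or Cxcl13 exceeded the 7.09 CPM of Cxcl13 in the lung, and spleen and lung did not overlap for either gene.

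Cxcl12, the ligand of Cxcr4 that retains stem cells in bone marrow and acts in many stromal niches, was the broadest member. It measured 525, 551, 588 and 623 CPM in the spleen, 341 to 452 in the liver, 187 to 216 in the heart, 119 to 139 in the kidney and 111 to 143 in the lung. In the muscles the WT means were highest in soleus, with libraries at 51.2, 56.5, 72.8, 90.5 and 101.3 CPM. The spleen led on CPM and the liver on the TMM scale. On the TMM scale the lung mean (59.9) also fell below those of soleus (94.6) and tibialis (67.4).

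Epithelial ligands marked single organs. Ccl28, a mucosal ligand of Ccr10, measured 23.0, 34.9, 41.7 and 70.4 CPM in the 4 WT kidneys, against a next mean of 0.632 CPM in the lung. Cxcl17, a mucosal chemokine of the airways, measured 49.2, 49.7, 50.04, 52.6 and 61.3 CPM in the lung and at most 0.617 CPM in any WT heart, its next tissue. Neither overlapped with another tissue.

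Cxcl14, a broadly made epithelial and stromal chemokine whose receptor is debated, had its CPM mean highest in the lung (61.9 to 91.2 CPM) but in tibialis on the TMM scale. Its WT muscle means ran from 21.1 to 38.7 CPM, and it was almost absent from liver (0.396 CPM) and spleen (0.0622 CPM). Ccl27a, a skin ligand of Ccr10, was flat, with means of 5.38 CPM in the kidney, 5.25 in the liver and 4.67 in the lung that overlapped, and the kidney led on CPM and the liver on TMM. Ccl25, the thymic and gut ligand of Ccr9, was at 3.0 CPM in the liver and 2.81 CPM in the kidney, also overlapping.

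Some of these ligands have near-identical copies, and their values are uncertain. At least 50 consecutive bases were shared with another gene over 100% of the Ccl21b transcript, 98.1% of Ccl27b, 71.6% of Ccl21a, 52.0% of Ccl19 and 45% of Ccl27a. Ccl21b and Ccl21c are annotated on the same stretch of chromosome 4. Ccl21b measured 3.53, 4.0, 36.2, 37.4 and 45.6 CPM in the WT lungs, and the 2 low lungs held the highest Ccl21c values, 6.46 and 9.42 CPM. The KO lungs split in the same way, with Ccl21b at 0.174 CPM or less in 2 mice whose Ccl21c was 8.83 and 10.96 CPM, and at 37.0 to 39.3 CPM in the other 3. How reads were divided between the copies was not tested.

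Monocyte and macrophage attractants were highest in the lung for 6 of 11 members. Ccl6, a mouse CC ligand of Ccr1 made by macrophages, measured 110 to 248 CPM in the WT lungs with a median of 141, and averaged 35.2 CPM in the spleen. Ccl9, its neighbour on chromosome 11, measured 17.9, 25.6, 36.2, 39.0 and 81.3 CPM in the lung and 22.7 to 31.4 CPM in the liver, which overlap, and the liver led on TMM. Ccl5, the T cell and NK cell product, was a spleen gene at 78.7, 84.6, 87.6 and 102 CPM, against a lung mean of 9.62 CPM.

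Both transmembrane chemokines were organ genes. Cx3cl1, the adhesive ligand of Cx3cr1, measured 52.4, 53.0, 54.3 and 57.1 CPM in the kidney, 36.4 to 47.3 in the lung and 8.25 to 10.4 in the heart, with no overlap between these 3 organs. Cxcl16, the ligand of Cxcr6, measured 64.0 to 94.2 CPM in the lung, 37.0 to 42.3 in the spleen and 27.8 to 31.8 in the kidney, again without overlap. On the TMM scale the kidney mean of Cxcl16 (24.7) lay above its spleen mean (21.0). Ccl2, the main ligand of Ccr2, was low everywhere, highest in the heart at 1.01 to 2.22 CPM, where it overlapped with the lung (0.220 to 2.28 CPM). Ccl3 (2.27 CPM in the lung), Ccl4 (1.46 CPM in the spleen) and Ccl8 (1.5 CPM in the lung, tibialis on TMM) were similarly low.

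The 3 interferon-induced ligands of Cxcr3 did not share a tissue order. Cxcl9 measured 38.1, 41.8, 47.7 and 81.8 CPM in the spleen and 3.40 to 17.4 CPM in the liver. Cxcl10 measured 27.1, 29.1, 32.0 and 32.3 CPM in the spleen and averaged 2.23 CPM in the liver. Cxcl11 was highest in the liver, at 0.859 to 1.37 CPM. The spleen libraries lay above the liver libraries for Cxcl9 and Cxcl10, while Cxcl11 was under 1 CPM in the mean of every other tissue.

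Attractants of eosinophils and of Th2 and regulatory T cells held the one member above 5 CPM that was led by a muscle on the CPM scale. Ccl11 (eotaxin, a ligand of Ccr3) averaged 17.2 ± 2.70 CPM in EDL, 13.9 ± 4.56 in soleus, 12.9 ± 3.41 in tibialis and 10.5 ± 1.57 in gastrocnemius (SD, n = 5 each). EDL and gastrocnemius, the ends of this order, did not overlap, and neighbouring muscles did. Outside muscle it averaged 4.09 CPM in the lung, 1.59 in the heart, 0.633 in the spleen and 0.271 in the kidney, and no read was counted in the 5 WT livers, which allows up to 3 reads per library. Ccl17, a ligand of Ccr4, measured 3.46 to 12.4 CPM in the lung and 0.582 CPM on average in tibialis, its next tissue. Ccl22, the other Ccr4 ligand, measured 8.79 to 13.4 CPM in the spleen and 5.06 to 15.4 CPM in the lung, which overlap. Ccl20, the Ccr6 ligand, averaged 3.17 CPM in the lung and Ccl24, a second Ccr3 ligand, 2.71 CPM in the spleen (tibialis on TMM).

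Receptors were spleen genes: 17 of 19 were highest there, Ccr2 and Cxcr1 being the exceptions. Cxcr5, the B cell follicle receptor, measured 244, 248, 257 and 295 CPM, and its lung mean was 7.78 CPM. Cxcr4, present on most leukocytes, measured 197, 217, 246 and 248 CPM, and Ccr7, the lymph node homing receptor, 96.5, 139, 140 and 150 CPM. The spleen libraries of these 3 receptors lay above every library of the other tissues, and the lung came next, with means of 54.8 CPM for Cxcr4 and 13.3 CPM for Ccr7.

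Ccr3, the eotaxin receptor, measured 29.2, 36.3, 42.6 and 44.9 CPM in the spleen against a next mean of 0.792 CPM in tibialis, so it was low where Ccl11 was high. Cx3cr1 (30.5 to 47.6 CPM), a receptor of patrolling monocytes and resident macrophages, and Cxcr2 (26.9 to 42.0 CPM), the main neutrophil receptor, were also spleen-highest. Lymphocyte receptors followed: Ccr6 (22.2 to 31.6 CPM), Ccr9 (22.4 to 29.3 CPM), Cxcr3 (18.2 to 29.1 CPM) and Cxcr6 (10.1 to 16.6 CPM).

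Ccr4, the receptor of Ccl17 and Ccl22, was lower at 3.32 to 4.0 CPM. Xcr1, the receptor of cross-presenting dendritic cells, measured 19.2 to 30.5 CPM in the spleen, and Ccr1 8.40 to 15.1 CPM, the latter overlapping with the lung (5.39 to 14.5 CPM). Ccr2, the receptor of inflammatory monocytes, measured 26.9 to 37.5 CPM in the lung and 26.1 to 31.1 CPM in the spleen, which overlap, and was highest in tibialis on TMM. Cxcr1, a second neutrophil receptor, measured 1.49 to 6.5 CPM in the lung and at most 0.363 CPM in the spleen. In these bulk samples fewer cells of a type and less RNA per cell cannot be told apart. The summed B cell markers, 2652 to 3217 CPM in WT spleens, 92.1 to 139 CPM in lungs and 0.633 to 1.02 CPM in soleus, were ordered as the Cxcr5 levels of these tissues were. Among the WT muscles the orders differed, at low levels. Cxcr5 was highest there in tibialis (0.142 CPM on the TMM scale) and the marker sum in EDL (median 1.07 CPM). The part of the B cell markers in the receptor levels was not tested.

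**Figure D2:**
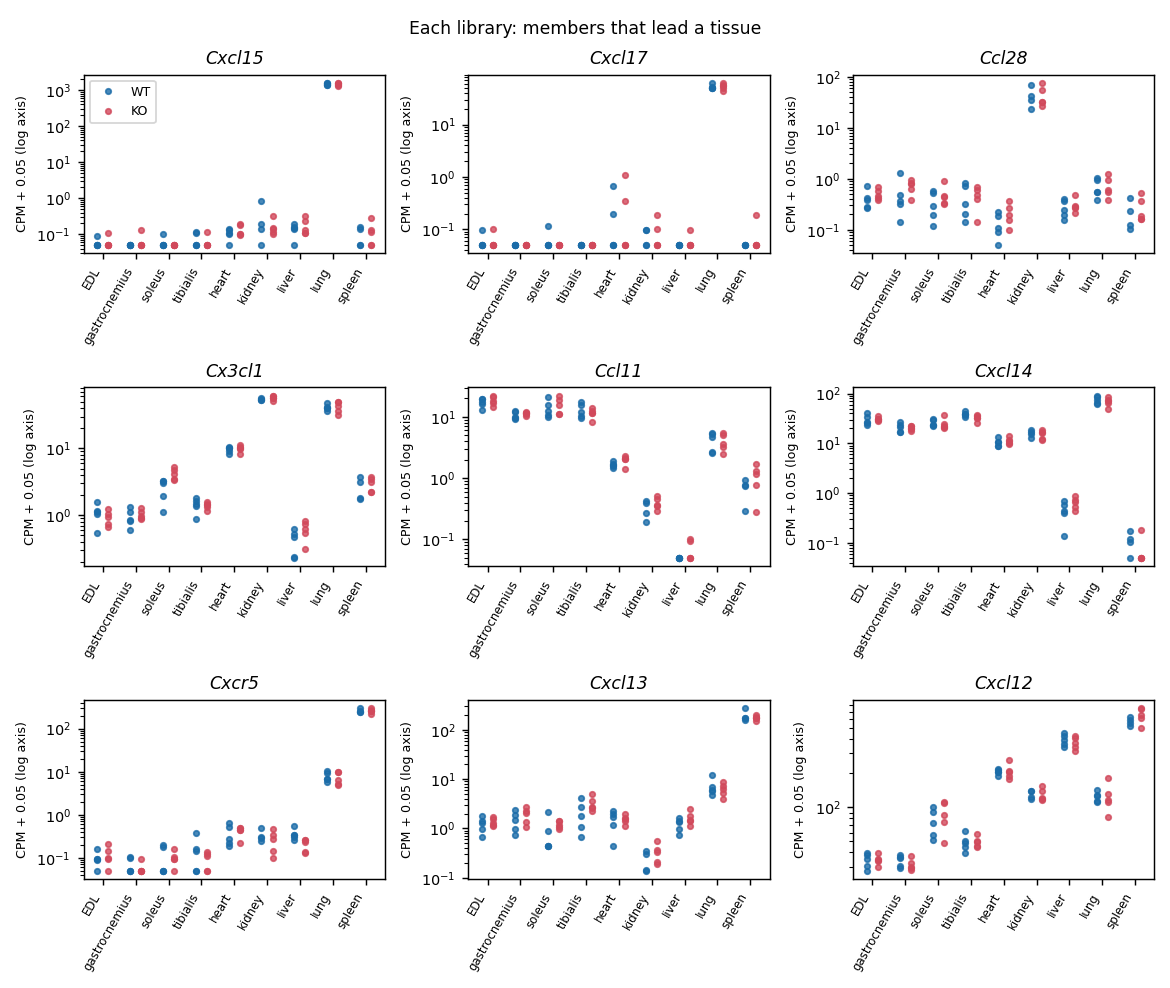
Each of the 88 libraries for 9 members that lead a tissue, as CPM + 0.05 on a log axis, with WT in blue and KO in red. Cxcl15 and Cxcl17 stand out in the lung, Ccl28 in the kidney, Ccl11 in the muscles and Cxcr5 and Cxcl13 in the spleen, in both genotypes.

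The tissue contrasts were tested on WT counts with the edgeR quasi-likelihood test, each organ against the mean of the other 8 tissues on the log2 scale, with Benjamini-Hochberg adjustment over all genes. Of the 57 members, 52 passed the count filter, and a filter of this kind keeps a member that is high in a single tissue. In the spleen 32 were higher and 8 lower, when 41.5% of all genes tested were higher and 38.2% lower. In the lung 40 were higher and 6 lower, against 43% and 38.5% of all genes. Because 12 of the 52 had a WT tissue with no read in any library, their fitted folds set no bound, and without them the counts were 25 and 8 in the spleen and 30 and 6 in the lung.

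By role, the spleen contrast held all 17 tested receptors among the higher calls (9 CC and 8 CXC, CX3C or XC), when 41.5% of all genes were higher. These included Ccr4, Ccr6, Ccr1l1 and Cxcr1, which each had a WT tissue with no read in any library, so their folds set no bound. Cxcr1 was higher in the lung (3.54 CPM) than in the spleen (0.148 CPM) and lost its call without mouse 3793553. Ccr1l1 did not keep its call with KO in place of WT libraries. Cxcr5 was 9.41 (SE 0.12) log2 units above the mean of the other tissues (edgeR adjusted p = 4e-43) and Ccr3 7.93 (SE 0.30). Cxcl14 was lower in the spleen, with a log2 fold change of -8.79 (SE 0.38). Its WT spleens held 0 to 0.122 CPM, near the floor, so this fold and its SE set no firm size. In the lung all 11 monocyte attractants and all 5 neutrophil attractants were higher, with Ccl6 at 2.94 (SE 0.22) and Cxcl2 at 4.45 (SE 0.38). Over all genes 43% were higher in the lung. Among these attractants Ccl3, Ccl4, Cxcl3, Cxcl5 and Cxcl15 had a WT tissue with no read in any library. Ccl2 lost its lung call without mouse 3817948, and Ccl2 and Ccl12 did not keep theirs with KO in place of WT libraries. Of the 3 Cxcr3 ligands none was higher there and 2 were lower, Cxcl9 (-2.60, SE 0.46) and Cxcl11 (-4.30, SE 0.75). The size of the Cxcl11 fold is likewise not firm, because its WT lung mean was 0.00536 CPM on the TMM scale.

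In the liver 14 members were higher and 13 lower, against 36.4% and 42.3% of all genes, and 12 and 12 without the members that had an empty tissue. The higher ones included all 3 Cxcr3 ligands, with log2 fold changes of 3.45 for Cxcl11 (SE 0.27), 2.35 for Cxcl9 (SE 0.30) and 1.91 for Cxcl10 (SE 0.24), and also Cxcl12 (2.47, SE 0.08). Without mouse 3805673 the higher count in the liver was 9. In the kidney 11 were higher and 12 lower, against 40.2% and 34.3% of all genes, led by Ccl28 (6.96, SE 0.19), Cx3cl1 (4.16, SE 0.11) and Cxcl16 (2.18, SE 0.09). In the heart 10 were higher and 12 lower, against 34.6% and 33.4%. Among the 8 higher ones without an empty tissue, the monocyte attractants Ccl7 (2.81, SE 0.41) and Ccl2 (2.39, SE 0.31) had the largest estimates. The other 2 were Cxcl5, at 0.0915 to 0.561 CPM in the hearts, and Cxcl17, whose call was lost without mouse 3817948 (edgeR adjusted p = 0.172).

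The mean of the 4 muscles was compared with the mean of the 5 organs. There 9 members were higher and 28 lower, against 40% and 44.4% of all genes. All 8 CXC, CX3C and XC receptors were lower, from Cx3cr1 at -1.44 (SE 0.13) to Cxcr5 at -4.67 (SE 0.30). Of these Cxcr1 had no read in any WT muscle library, so its fold sets no bound. It lost its call with KO in place of WT libraries and without mouse 3805657. The higher members without an empty tissue were Cxcl14 (3.94, SE 0.11), Ccl24 (1.71, SE 0.23), Cxcl11, Ccl8, Ccr2 (0.81, SE 0.20), Ccl25, Ccl9 and Ccl27a (0.19, SE 0.08). The contrast averages logs, so a higher call does not place muscle above every organ. On TMM Cxcl11, Ccl25, Ccl9 and Ccl27a were highest in the liver, and Cxcl11 was near the floor in heart (0.00874 CPM) and lung (0.00536 CPM). Ccr2 was at 5.09 CPM in soleus, 5.85 in gastrocnemius, 7.77 in EDL and 17.9 in tibialis, against 15.3 in lung and spleen. Some of these calls were not firm. Ccl27a lost its call with DESeq2 size factors, with KO in place of WT libraries, and without mouse 3793543, 3793553 or 3805657. Ccl9 lost it with DESeq2 size factors, without the count filter, and without mouse 3805657 or 3817948. Ccl8 lost it without mouse 3817948. Ccl11 was also called higher, and its levels are given above in place of a fold because the liver held none.

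Soleus, the slow-fibre muscle, was set against the other 3 muscles. Of 23 members tested 2 were higher and 0 lower, when 12.8% of all genes were higher and 7.7% lower. Cxcl12 was 0.85 log2 units higher (SE 0.13, edgeR adjusted p = 7.69e-05), with WT soleus libraries at 51.2 to 101.3 CPM against 27.5 to 61.9 CPM across the other 3. Cx3cl1 was 1.095 higher (SE 0.23, edgeR adjusted p = 0.00163), at 1.07 to 3.26 CPM against 0.487 to 1.78 CPM. For Cxcl12 the soleus range overlapped only that of tibialis, and for Cx3cl1 it overlapped those of all 3 other muscles. At an unadjusted p under 0.05 there were 7 members, 30.4% of those tested, beside 32.5% of all genes. With the KO libraries in place of the WT ones 4 members were higher, Cx3cl1 (1.81), Cxcl12 (1.02), Cxcl9 (1.05) and Cxcr4 (0.59), and 5 were lower (Ccl8, Ccl24, Ccl25, Cxcl13 and Cxcl14). In these libraries 27.4% of all genes were called higher and 26.3% lower, so more of all genes were called there as well. The lower count in WT was 1 with DESeq2 size factors (Ccl25), 2 with mouse as a replicate block (Ccl25 and Cxcl13) and 1 without mouse 3793543 (Cxcl13).

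Other genes of the pathway, from a fixed list, were counted in the same contrasts. Over all genes tested 41.5% were higher and 38.2% lower in the spleen, and 43% and 38.5% in the lung. In the muscles 40% of all genes were higher and 44.4% lower. The receptor signalling and desensitisation genes were higher in the spleen for 13 of 13 tested and in the lung for 11, and lower in the muscles for 12. The cytokines that induce chemokines and the NF-kB response genes were higher in the spleen for 14 of 15, in the lung for 15, and lower in muscle for 14. Of the 5 atypical receptors, which scavenge chemokines without signalling through G proteins, 4 were higher in the spleen, 3 in the lung and 3 in muscle, and 1, 1 and 0 were lower. Of the 7 ligand processing and presentation genes 3 were higher and 4 lower in the spleen, all 7 higher in the lung and all 7 lower in muscle. Differences between these lists were not tested.

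Chemokine genes lie in clusters, and clustered members did not always share a tissue. With neighbours defined as members at most 200000 bases apart, 41 members fell into 11 runs. Of the 30 neighbouring pairs 16 had the same highest tissue by CPM. The spleen led 29 and the lung 19 of all 57 members, and the share among other pairs of members was not computed. Highest tissues in these runs are by CPM, and on TMM Ccr2 and Ccl8 were highest in tibialis and Ccl9 in the liver. On chromosome 5 the run of 5 from Cxcl5 to Cxcl2 (start 90759298, end 90905938, mm10) was highest in the lung throughout. On chromosome 9 the run of 8 receptors that starts with Ccr9 (123767211) was highest in the spleen in 7, with Ccr2 in the lung.

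Other runs were split. The chromosome 11 run of 6 from Ccl2 to Ccl1 (82035577 to 82179812) had Ccl2 and Ccl7 highest in the heart, Ccl11 in EDL, Ccl12 and Ccl8 in the lung and Ccl1 in the spleen. On chromosome 8 Ccl22, Cx3cl1 and Ccl17 (94745684 to 94812036) were highest in spleen, kidney and lung. Cxcl9 and Cxcl10, whose promoters are printed above, were spleen-highest and their neighbour Cxcl11 liver-highest.

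Ligands and receptors that bind each other were compared over the 9 WT tissue means, as a description. Of 30 pairs 12 had the same highest tissue by CPM, and 18 had a Spearman correlation over 0.5 (n = 9 tissues, which share mice, and muscles count 4 times). The shares for ligands and receptors that do not bind each other were not computed. The highest values were 0.92 for Cxcl16 and Cxcr6, 0.88 for Ccl19 and Ccr7, 0.87 for Cx3cl1 and Cx3cr1 and 0.85 for Cxcl10 and Cxcr3. The Cxcl16 and Cx3cl1 pairs reached these values although ligand and receptor peaked in different organs. The lowest were -0.22 for Ccl28 and Ccr10, -0.13 for Ccl27a and Ccr10 and -0.03 for Cxcl11 and Cxcr3. Ccr10 reached only 0.515 CPM, in the spleen. Ccl11 and Ccr3 had 0.25, with the ligand highest in EDL and the receptor in the spleen.

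**Figure D3:**
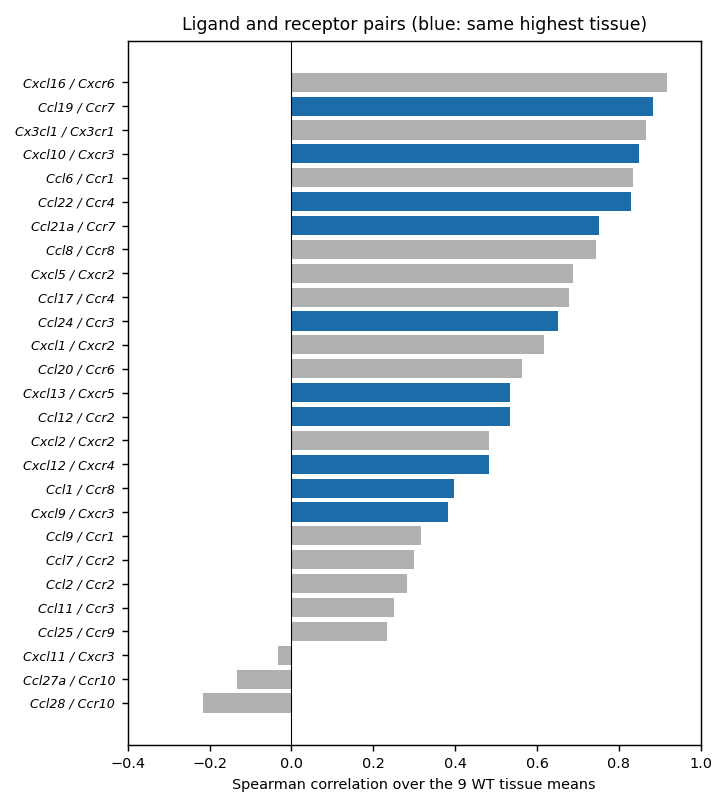
Spearman correlation over the 9 WT tissue means for 27 of the 30 ligand and receptor pairs, with bars in blue where both genes had the same highest tissue. The bars run from -0.22 for Ccl28 and Ccr10 to 0.92 for Cxcl16 and Cxcr6.

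No member passed the threshold in KO against WT in any tissue. The edgeR quasi-likelihood test was fitted to KO against WT within each tissue, with Benjamini-Hochberg adjustment over all genes. It called 0 of 19 members tested in EDL, 0 of 19 in gastrocnemius, 0 of 21 in soleus and 0 of 22 in tibialis, when 0.00777%, 0.00792%, 0.00771% and 0.0081% of all genes were called. In heart (22 members), kidney (24), liver (21), lung (46) and spleen (36) it called 0 members and 0% of all genes. The DESeq2 Wald test also called 0 in each tissue, but in soleus it gave an adjusted p for only 1 member, and there it called 165 of all genes against 1 in edgeR. An unadjusted p under 0.05 was reached in soleus by 6 members (28.6%, beside 17.2% of all genes) and in heart by 3 (13.6%, beside 3.13%). In tibialis there were 2 (9.09%, beside 1.77%), in lung 2 (4.35%, beside 2.06%), in kidney 1 (4.17%, beside 3.35%) and in spleen 1 (2.78%, beside 0.846%). In EDL, gastrocnemius and liver there were 0, beside 4.58%, 1.95% and 1.57% of all genes.

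Tissue patterns were largely kept in KO mice: 51 of 57 members had the same highest tissue in both genotypes, and 34 of the 37 members at 5 CPM or more. The 3 exceptions were Ccr2, Ccl21b and Ccl27a, whose leading tissues were close in both genotypes. Cxcl15 in the KO lungs measured 1288 to 1574 CPM against 1352 to 1612 in WT, and Cxcr5 in the KO spleens 222 to 296 CPM against 244 to 295, which overlap.

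**Figure D4:**
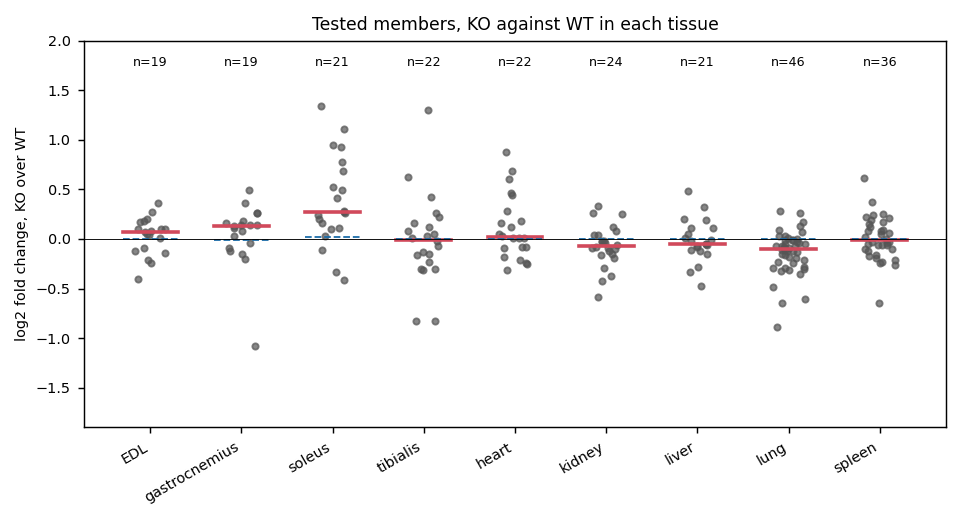
Log2 fold change of KO over WT for every tested member in each tissue (1 point a member, number tested above), with the members' median in red and the median of all genes as a dashed blue line. In soleus the members' median was 0.27 and that of all genes 0.02, and no point passed the threshold.

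Soleus was the tissue with the largest share of positive members. Of 21 tested, 18 (85.7%) had a higher KO estimate, beside 53.4% of all genes tested. Their median log2 fold change was 0.27, beside 0.02 over all genes tested. In the lung 9 of 46 (19.6%) were positive, beside 51.7% of all genes, with a median of -0.10 beside 0.00 over all genes. No member was called in either tissue.

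Cx3cl1 in soleus was the one tested member, over the 9 tissues, whose 2 genotypes did not overlap. It was 1 of 21 members there, when 3.15% of all genes tested in soleus did not overlap. A single separated member is near that share and is no result about the members as a set. In the other tissues 0 members were separated, beside 0.482% of all genes in EDL, 0.396% in gastrocnemius, 0.356% in tibialis, 0.469% in heart, 1.2% in kidney, 0.251% in liver, 0.415% in lung and 0.337% in spleen. Cx3cl1 measured 1.07, 1.92, 2.94, 3.24 and 3.26 CPM in WT soleus and 3.30, 3.44, 4.03, 4.64 and 5.22 CPM in KO soleus. The lowest KO value lay just above the highest WT value. The log2 fold change was 0.68 (SE 0.26, edgeR adjusted p = 0.247, 0.182 to 0.449 over the alternatives), and the KO values were higher in 5 of 5 mice than every WT value. Fibre-type markers moved in the same muscle: the sum of the 3 slow-fibre markers was 2632 to 5355 CPM in WT and 4385 to 12644 CPM in KO soleus, and that of the 4 skeletal muscle markers 64308 to 111976 CPM in WT and 30794 to 77386 CPM in KO. All 3 slow-fibre genes had a higher and all 4 skeletal muscle genes a lower KO estimate (medians 0.998 and -0.42), none past the threshold, and their part in the Cx3cl1 values was not tested.

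Ccl6, Ccl9 and Ccr2 were high in the same 2 KO soleus muscles. Ccl6 measured 3.04, 4.71, 5.45, 7.66 and 8.70 CPM in WT, and 4.33, 7.39, 7.67, 21.7 and 25.6 CPM in KO. Ccl9 measured 3.03 to 6.57 CPM in WT, and 4.05, 4.94, 6.55, 15.7 and 17.9 CPM in KO. Ccr2 measured 2.37 to 6.35 CPM in WT, and 2.53, 4.62, 7.12, 12.6 and 13.6 CPM in KO. The 2 high values of each came from KO mice 3805666 and 3805676, and the other KO libraries overlapped with WT for Ccl6 and Ccl9. For Ccr2 another KO library, of mouse 3779417 (7.12 CPM), also lay above all WT libraries. The log2 fold changes were 1.11 (SE 0.47), 0.95 (SE 0.41) and 0.93 (SE 0.41), with edgeR adjusted p of 0.273, 0.273 and 0.284.

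Macrophage markers moved with these genes. Of the list of 8, 7 were found, none at 0 in a group, and all 7 had a higher KO estimate in soleus with a median log2 fold change of 0.50, none past the threshold. Their summed level was 43.0 to 77.8 CPM in WT soleus and 52.4 to 133 CPM in KO soleus, highest in the same 2 mice. Their part in the chemokine values, and that of the fibre-type markers above, was not tested.

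The difference between soleus and the other 3 muscles in the effect of genotype was tested as an interaction over the 40 muscle libraries. Of 26 members 0 were called, and 0% of all genes, with 2 members (7.69%) and 16.4% of all genes at an unadjusted p under 0.05. DESeq2 gave an adjusted p for 2 members and called 0, and it called 332 of all genes. Cx3cl1 had 0.73 (SE 0.27, edgeR adjusted p = 0.165). Because every mouse gave several muscles, the fit with mouse as a replicate block was also made: it called Cx3cl1 (0.76, edgeR adjusted p = 0.0344) and 591 of all genes. In the other muscles Cx3cl1 overlapped between genotypes, at 0.487 to 1.51 CPM in WT and 0.607 to 1.20 CPM in KO EDL, for example.

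The other tissues gave small or scattered differences, and the 2 members with the smallest p in each are named. In tibialis Ccl8 measured 0.254 to 2.11 CPM in WT and 1.16 to 2.61 CPM in KO (log2 fold change 1.30), and Cxcl14 34.2 to 44.2 and 25.7 to 37.7 CPM (-0.23). In gastrocnemius Cxcl9 measured 0.448 to 3.20 and 0.378 to 0.845 CPM (-1.08, and -0.31 without WT mouse 3793553) and Ccl27a 1.53 to 2.73 and 2.04 to 2.57 CPM (0.26). In EDL Ccl27a measured 2.51 to 3.35 and 2.36 to 2.70 CPM (-0.21), and Ccl21b 1.51 to 2.97 and 1.04 to 2.86 CPM (-0.41). All of these ranges overlapped.

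In the organs the pairs overlapped as well. In the heart Ccl6 measured 5.83 to 7.32 CPM in WT and 5.89 to 12.4 CPM in KO (log2 fold change 0.46), and Cxcl1 0.412 to 0.673 and 0.437 to 1.38 CPM (0.68). In the kidney Cxcr2 measured 2.80 to 4.13 and 2.20 to 2.999 CPM (-0.42), and Cxcr4 3.02 to 4.56 and 2.71 to 3.72 CPM (-0.30). In the liver Cxcl13 measured 0.678 to 1.55 and 1.05 to 2.49 CPM (0.48), and Ccr2 0.479 to 1.28 and 0.489 to 0.715 CPM (-0.47). None passed the threshold in edgeR.

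In the lung Ccl27a measured 3.62 to 5.23 CPM in WT and 5.06 to 6.39 CPM in KO (0.28), and Ccl12, a mouse Ccr2 ligand, 0.361 to 1.46 and 0.204 to 0.782 CPM (-0.89). In the spleen Ccr2 measured 26.1, 28.7, 30.04 and 31.1 CPM in WT and 28.6, 38.7, 41.2, 42.0 and 42.3 CPM in KO (0.37). Ccl6 measured 29.1 to 45.6 and 36.4 to 48.3 CPM there (0.25). The KO spleens were above all WT spleens for Ccr2 in 4 of 5 mice, and no adjusted p was under 0.05.

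Some members ranged widely in muscle across mice of both genotypes. In tibialis Ccl6 ran from 7.88 to 72.9 CPM over the 10 libraries, a 9.25-fold range. The range was 9.42-fold for Ccl9, 10.9-fold for Ccr2 and, at much lower levels, 10.3-fold for Ccl8 (0.254 to 2.61 CPM), against 2.14-fold for Ccl11 and 1.72-fold for Cxcl14. The 4 highest tibialis libraries were the same for Ccl6, Ccl9 and Ccr2: WT mice 3805657 and 3817948 and KO mice 3805666 and 3805676. The same 4 mice were the highest in EDL for Ccl6, Ccl9 and Ccr2. In gastrocnemius and soleus the 4 highest for Ccl6 and Ccl9 were instead mice 3793553 (WT), 3805666, 3805676 and 3817943 (KO), without the WT pair 3805657 and 3817948. The summed macrophage markers were also highest in these 4 in tibialis, at 133 to 205 CPM against 56.1 to 123 CPM in the other 6, and their part in the ranges was not tested. In EDL the 4 highest marker sums belonged to 3 of these mice and to KO mouse 3779417 in place of WT mouse 3805657.

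**Figure D5:**
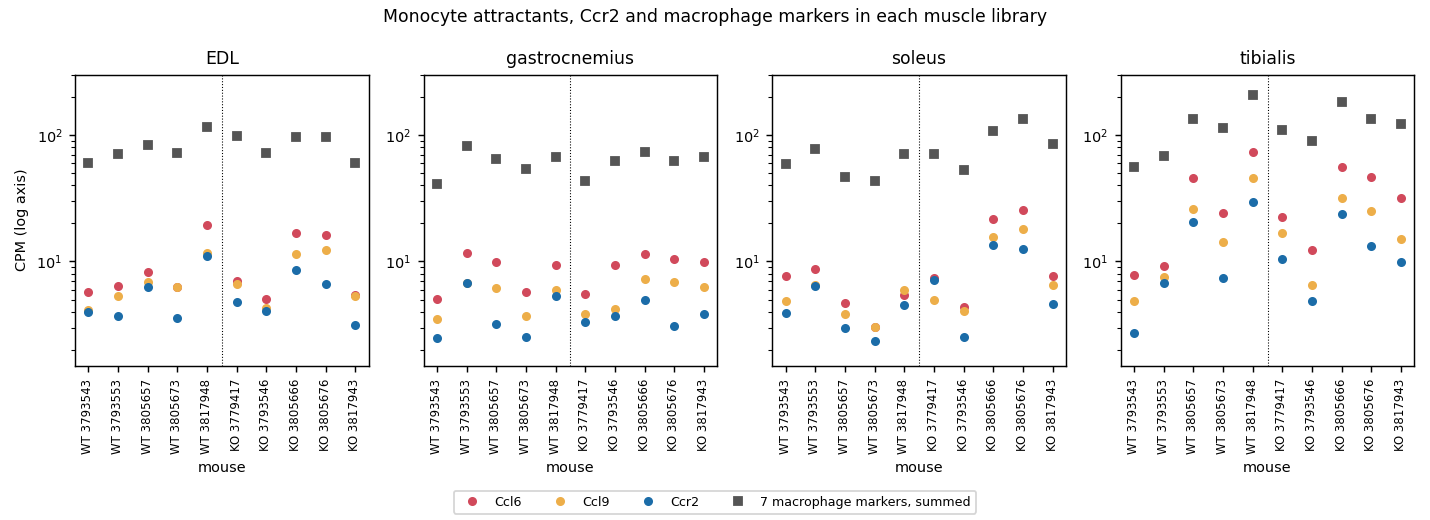
Ccl6, Ccl9, Ccr2 and the sum of 7 macrophage markers in each of the 40 muscle libraries, in CPM on a log axis, with WT mice left and KO mice right of the dotted line. In tibialis the 4 mice 3805657, 3817948, 3805666 and 3805676 lead on all 4 measures, and in soleus the KO mice 3805666 and 3805676.

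Pathway genes outside the name rule gave no call in KO against WT soleus. All 5 tested atypical receptors included 4 with a higher KO estimate, 11 of 13 signalling genes were tested with 6 higher, 10 of 16 inducers and NF-kB response genes with 5 higher, and 7 of 7 ligand processing genes with 5 higher. The smallest p values belonged to Icam1, the endothelial adhesion molecule that leukocytes bind, at 0.62 (SE 0.13, edgeR adjusted p = 0.238), and Adam17, a sheddase that releases Cx3cl1, at 0.32 (SE 0.08, edgeR adjusted p = 0.238).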

How the data were processed

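PolyA RNA libraries (MagMax extraction and KAPA stranded mRNA kit, per the labels' protocols) from 9 tissues of 10 mice were quantified per gene on mm10, per the submitters' processing notes. No aligner or counter is named in the labels. The authors deposited expected counts per gene, of which 85.5% of the values were whole, and RPKM values for the same libraries. Expected counts were rounded before testing, and 22 marker sequences that name no mouse gene (at most 0.0323% of a library) were left out.

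Depth was 8.21 to 25.1 M counts per library, which sets the precision. All 172 pairs of replicates differed by more than sampling noise. CPM was computed from the counts per library total. Tests used edgeR 4.0.16 (TMM, filterByExpr with a minimum count of 10 and minimum total of 15, robust glmQLFit, glmQLFTest) in R 4.3.3, with Benjamini-Hochberg adjustment over all genes tested and a threshold of 0.05; limma was 3.58.1 and DESeq2 1.42.0. KO against WT was fitted within each tissue, tissue contrasts over the WT libraries, and the interaction over 40 muscle libraries. The scripts were tested on simulated data. Alternatives were DESeq2 size factors, the DESeq2 Wald test, no count filter, age as a covariate, mouse as a replicate block, KO libraries for the tissue contrasts, and each mouse left out.

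Animal numbers in the labels pair the tissues of a mouse: over 164 pairs of libraries of 1 WT mouse the deviations from the group means (6820 genes) had a mean correlation of 0.130, with 89 pairs above 0.1. KO and WT were separate mice, so no block applied within a tissue.

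The members and lists were chosen with earlier results of these data known; the name rule itself uses no measured value. Named were members at 5 CPM or more in a WT tissue, the 2 with the smallest p in each genotype comparison, all called in soleus against the other muscles, and the 2 pathway genes with the smallest p in soleus. One member by this rule is not reported here and is left out of the plots that name members. Motifs were searched in RefSeq promoters of GRCm38.p6. Shared sequence was counted in stretches of 50 bases of annotated transcripts. Over 50 members the RPKM was within 10% of count over exon length in 36 and outside it in 14 in some library.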

Additional observations from a re-analysis of the deposited data

Results flagged for a closer look

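Among 74 groups of 4 or 5 libraries examined, 5 had a library far from the others, and chance gives about 1 in 20 (3.7 of 74). In WT gastrocnemius mouse 3793553 was far above the rest for Cxcl9, at 3.20 CPM against 0.448 to 0.956 CPM. The same mouse was also highest for Cxcl9 in soleus (4.84 CPM) and tibialis (2.96 CPM). In EDL it was not the highest, at 0.769 CPM against 1.22 CPM in WT mouse 3817948, and its T cell marker sum there was 0.698 CPM. Its summed T cell markers were 2.15, 2.41 and 2.80 CPM in gastrocnemius, soleus and tibialis, against at most 1.05 CPM in the other muscle libraries, and their part in the Cxcl9 values was not tested. The next highest soleus, 3.21 CPM in KO mouse 3779417, had a T cell marker sum of 0.574 CPM.

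The lung of that mouse stood above the other WT lungs for Cxcl1 (11 CPM against 1.82 to 4.45 CPM) and for Cxcl17 (61.3 CPM against 49.2 to 52.6 CPM). Cxcl13 in WT spleen was 273 CPM in mouse 3805673 and 161 to 176 CPM in the other 3. Ccr2 in KO spleen was 28.6 CPM in mouse 3817943 and 38.7 to 42.3 CPM in the other 4.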

How the results depend on the processing

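Of 265 recomputed counts of called members 258 stayed within 1.5 times the reported count and 7 moved, and no fold change of a named member changed direction. The interaction count was 0 and became 1 with mouse as a replicate block (Cx3cl1), when 591 genes were called in all. Without mouse 3793543 or 3793546 it stayed 0 for members, while 384 and 337 of all genes were called. In soleus against the other muscles the KO libraries gave 4 higher and 5 lower, and the lower count of 0 became 1 with DESeq2 size factors (66.7% of the calls then higher, against 100%) and 2 with the replicate block; the cause was not tested. The block moved no other count by over 1.5 times. Leaving out each mouse gave 0 in every KO against WT comparison and in the interaction, 30 to 32 higher and 6 to 8 lower in spleen, 38 to 42 and 5 to 7 in lung, 9 to 13 and 11 to 13 in liver, 10 to 12 and 9 to 12 in kidney, 9 to 11 and 10 to 12 in heart, 7 to 9 and 26 to 27 in muscles, and 2 to 3 and 0 to 1 in soleus. For single members 452 of 454 recomputed values kept their side of the threshold. Cxcl17 in heart lost it without mouse 3817948 (0.64, adjusted p = 0.172 in edgeR). DESeq2 size factors moved the median of all genes by over 0.1 only in the lung (0.108). A count of 0 allows up to 3 reads per library, so a member at 0 is not shown to be absent.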
